A study of Mus musculus with 2 samples.

Results

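The 32 genes described here encode the enzymes of glycolysis and parts of the cellular response to low oxygen. They are a fixed list of gene symbols, and all 32 were found among the 31053 features listed in both deposited matrices. The list holds 15 glycolytic enzymes, 6 genes of flux control and transport, and 11 genes of the Hif pathway outside glycolysis. The data are droplet single-cell libraries (10x Genomics) of heart cells sorted by flow cytometry for CD45, the surface protein of leukocytes. Both groups were wild type C57BL/6 mice aged 10 weeks with no other treatment named. Mice of the sham arm were sham operated, and those of the other arm had transverse aortic constriction (TAC), which narrows the aorta so that the left ventricle ejects against a raised pressure. Each arm is a single library, for which the series names 6 mice, and the sources used here give neither the time after surgery nor the animal behind a cell. With 1 library per arm, library and condition cannot be told apart and no difference was tested. All intervals below are 95% intervals that cover the counting error of unique molecular identifiers (UMIs, the tags that count captured RNA molecules) and nothing else.

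Glycolysis breaks glucose down to pyruvate in the cytoplasm and yields ATP without oxygen. Glucose enters through the transporters Slc2a1 and Slc2a3, hexokinases trap it, phosphofructokinase sets the pace, lactate dehydrogenase turns pyruvate into lactate, and Slc16a3 carries lactate out. The transcription factor subunit Hif1a is marked for destruction by the prolyl hydroxylases Egln1 and Egln3 while oxygen is present, and when oxygen is short it pairs with Arnt and switches on glycolytic genes together with targets such as Vegfa. Macrophages and neutrophils are known for a strong use of glycolysis when they are activated. Hif1a is controlled mostly as a protein, so its mRNA level is not a reading of its activity.

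Barcodes were assigned to 5 classes by the UMIs of 8 markers each, and a barcode that also carried markers of a second class was left out. This left 3306 sham and 2958 TAC macrophage barcodes, 104 and 808 neutrophil, 34 and 88 T cell, 181 and 220 fibroblast, and 69 and 343 endothelial barcodes. The 2 libraries held 11941 and 7975 barcodes in all, with 87532984 and 97983083 UMIs, and 35 barcode sequences occurred in both. Every class had at least 2 of its own 8 markers among its 10 leading genes in either library, and only the TAC T cell barcodes had 1 of another class there. The barcodes were selected on these same markers, so this is no separate check of the class names. Leading genes of the sham T cell barcodes were Il17a and Trdc, the latter a marker of gamma-delta T cells. Trbc2, Ifng, Gzmb and Cd8b1 led in TAC, where Il17a was also among the 10 leading genes. Natural killer cell markers summed to 2.74 UMIs per 10000 in sham and 61.0 in TAC. Fibroblast and endothelial barcodes lie outside a CD45 sort: their level of Ptprc, the gene of CD45, was 22.9 and 9.14 in fibroblasts and 49.5 and 35.9 in endothelial barcodes (sham first), against 408 and 436 in macrophages, all in CPM (UMIs of a gene per 1000000 UMIs of its class and library). RNA quality moved with the library throughout. The median share of mitochondrial UMIs in sham and TAC was 8.13% and 4.55% for macrophages. Neutrophils had 16.1% and 5.35%, T cells 11.8% and 4.98%, fibroblasts 7.52% and 3.46%, and endothelial barcodes 8.65% and 5.25%. Median depth was 9245 and 14743 UMIs in macrophages. The stress genes Fos, Jun, Egr1, Atf3, Hspa1a and Hspa1b, which respond to tissue digestion and were chosen after their values were seen, summed to 16070 CPM in sham and 7130 in TAC macrophages. Apart from the splits given below, the part of these shifts in the results was not tested.

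The sequence before the start of transcription is shown for 5 members on which the results turn: 3 enzymes that were higher in TAC macrophages, and Vegfa and Adm, Hif targets that went opposite ways there. The lower call on Adm held only with 1 barcode kept, as given below. RefSeq starts (GRCm38.p6) were available for 29 of the 32 members; Bnip3l, Ndrg1 and Slc2a3 were not matched. The core was searched as ACGTG or GCGTG on both strands, which reads CACGT or CACGC on the other strand, in the 250 bases before each start, and CACGTG counts as 2 overlapping matches. At least 1 match was present before 27 of the 29 members (93.1%), all but Gpi1 and Tpi1, against 41.5% of 27025 genes and 59.8% of the 10110 genes measured in macrophages. At least 2 matches before a single start were present in 65.5% of members, 18.7% of all genes and 30.6% of those measured in macrophages. By group, 13 of 15 enzymes, 5 of 5 flux and transport genes and 9 of 9 Hif pathway genes with a start held a match. Below, Hk3 (chr13:55021386-55021635, minus strand), Pgk1 (chrX:106186850-106187099, plus strand), Ldha (chr7:46845554-46845803, plus strand), Adm (chr7:110627407-110627656, plus strand) and Vegfa (chr17:46032378-46032627, minus strand) are printed 5′ to 3′ with the matches in capitals. None of these windows overlaps an exon of GENCODE vM21; that of Ldha lies within the annotated gene, in an intron, and the others lie before their genes.
Hk3: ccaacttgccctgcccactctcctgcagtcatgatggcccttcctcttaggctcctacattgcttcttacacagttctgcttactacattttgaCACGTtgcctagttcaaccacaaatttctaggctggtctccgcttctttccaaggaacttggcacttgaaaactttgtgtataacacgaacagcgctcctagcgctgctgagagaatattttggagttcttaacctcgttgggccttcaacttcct
Pgk1: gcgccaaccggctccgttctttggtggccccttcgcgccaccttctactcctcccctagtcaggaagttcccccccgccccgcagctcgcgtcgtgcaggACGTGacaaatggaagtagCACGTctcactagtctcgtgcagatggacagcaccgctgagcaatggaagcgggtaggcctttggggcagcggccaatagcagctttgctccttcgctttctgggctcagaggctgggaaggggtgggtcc
Ldha: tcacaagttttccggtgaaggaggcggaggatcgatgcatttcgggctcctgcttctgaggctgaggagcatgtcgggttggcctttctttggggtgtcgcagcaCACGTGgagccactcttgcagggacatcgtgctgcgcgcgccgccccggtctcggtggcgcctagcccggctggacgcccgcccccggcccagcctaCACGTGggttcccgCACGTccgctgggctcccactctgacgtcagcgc
Adm: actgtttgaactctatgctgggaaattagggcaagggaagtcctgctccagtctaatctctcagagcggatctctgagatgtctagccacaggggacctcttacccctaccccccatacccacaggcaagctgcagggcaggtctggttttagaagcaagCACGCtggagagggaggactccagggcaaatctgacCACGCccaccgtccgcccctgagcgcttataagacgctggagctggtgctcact
Vegfa: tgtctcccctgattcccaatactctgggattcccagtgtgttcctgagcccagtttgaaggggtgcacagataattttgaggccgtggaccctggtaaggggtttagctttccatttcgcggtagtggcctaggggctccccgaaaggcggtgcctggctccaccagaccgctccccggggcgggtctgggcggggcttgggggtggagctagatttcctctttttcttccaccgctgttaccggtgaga
The Ldha window held 5 matches, those of Pgk1 and Adm 2 each and that of Hk3 1, while the window before the outer start of Vegfa held none. A start inside the Vegfa gene held 2, in a window that is mostly exon and is not printed. Matches are letters only and say nothing of binding, and a window without one says nothing of sites elsewhere, such as further upstream.

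Enzymes were higher in the TAC library mainly in macrophages, neutrophils and T cells, and little different in fibroblasts and endothelial barcodes. A gene counts as measured in a class with at least 20 UMIs over both libraries and as higher or lower past 1.5-fold, with 0.5 UMI added to each count. In macrophages 17 of 32 members were higher and 2 lower, where 12.8% of all 13357 measured genes were higher and 22.6% lower. In neutrophils 10 of 29 were higher and 7 lower, against 29.9% and 26.3% of 7248 genes, so that the share of members past the fold was near the background there. T cell barcodes had 13 of 23 higher and 3 lower, against 31.7% and 16.9% of 5755 genes. Among the 13 were 4 flux and transport genes with at most 1 sham UMI, measured only through their TAC counts. Fibroblasts had 5 of 29 higher and 2 lower, against 10.4% and 18.1% of 10094 genes. Endothelial barcodes had 5 of 26 higher and 1 lower, against 19.1% and 14.5% of 9040 genes, which again is near the background for the higher side. The counting interval left out 1 for 16 of the 17 higher members in macrophages, 7 of 10 for neutrophils, 10 of 13 for T cells, 5 of 5 for fibroblasts and 4 of 5 for endothelial barcodes.

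**Figure D1:**
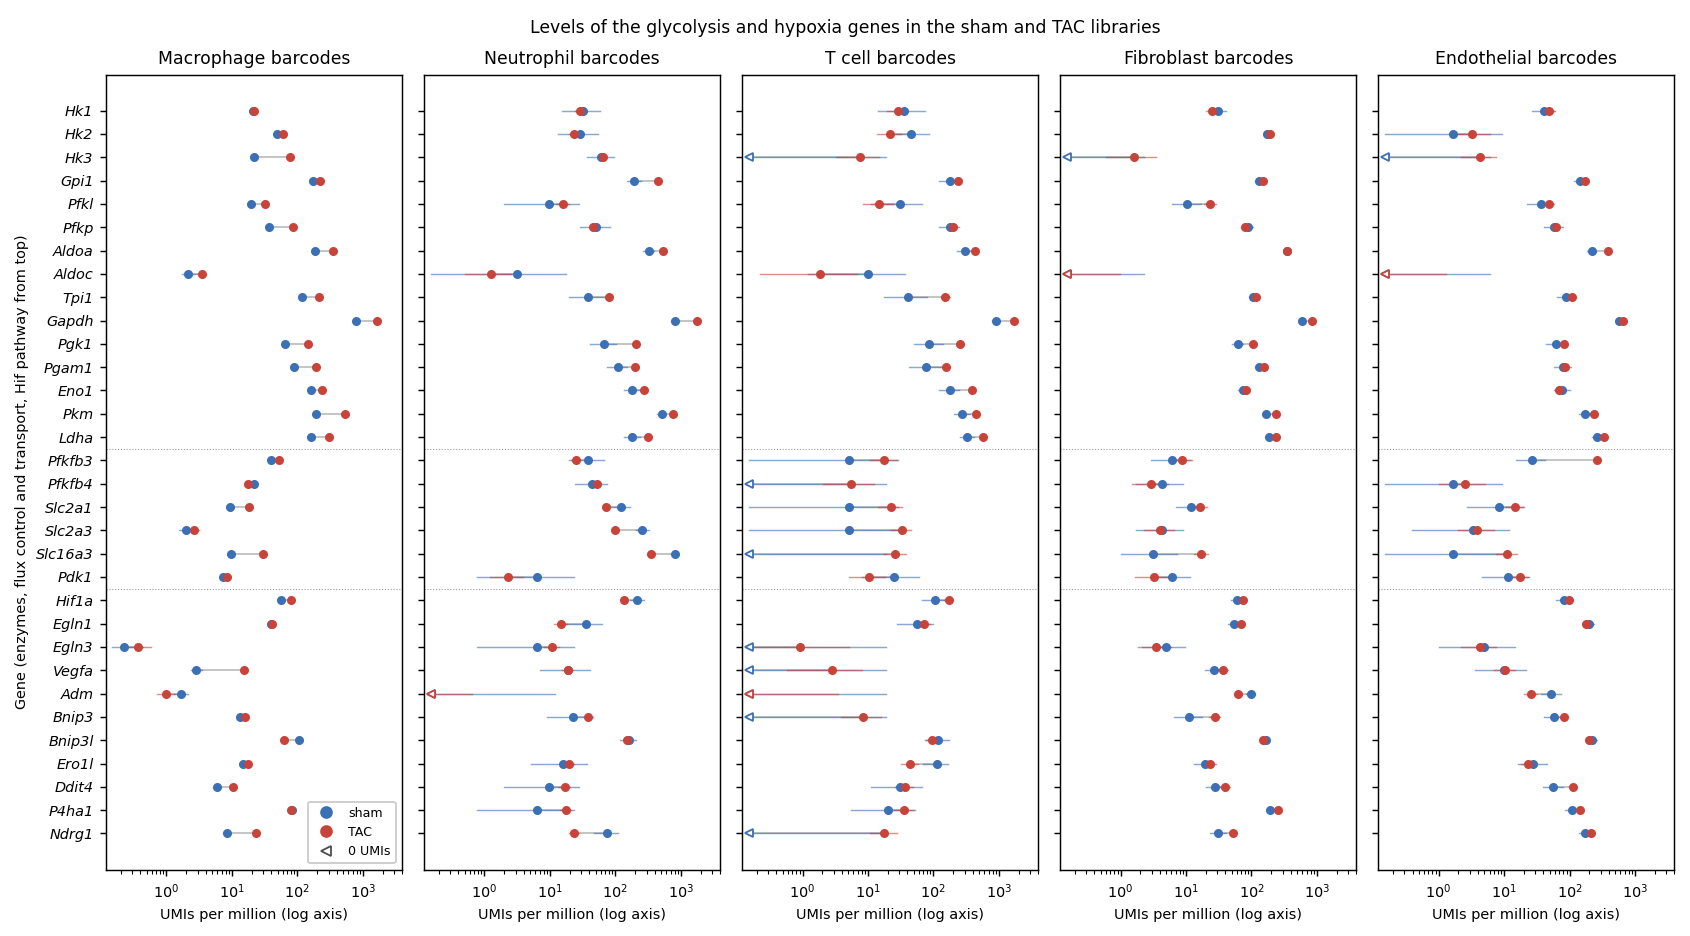
Level of each member in CPM (log axis) in sham (blue) and TAC (red), with 95% Poisson intervals as lines and open triangles at the left edge for 0 UMIs. Macrophage enzymes lie to the right in TAC, Slc16a3 is highest in neutrophils in both libraries, and Pfkfb3 in endothelial barcodes goes from 26.4 to 259.

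**Figure D2:**
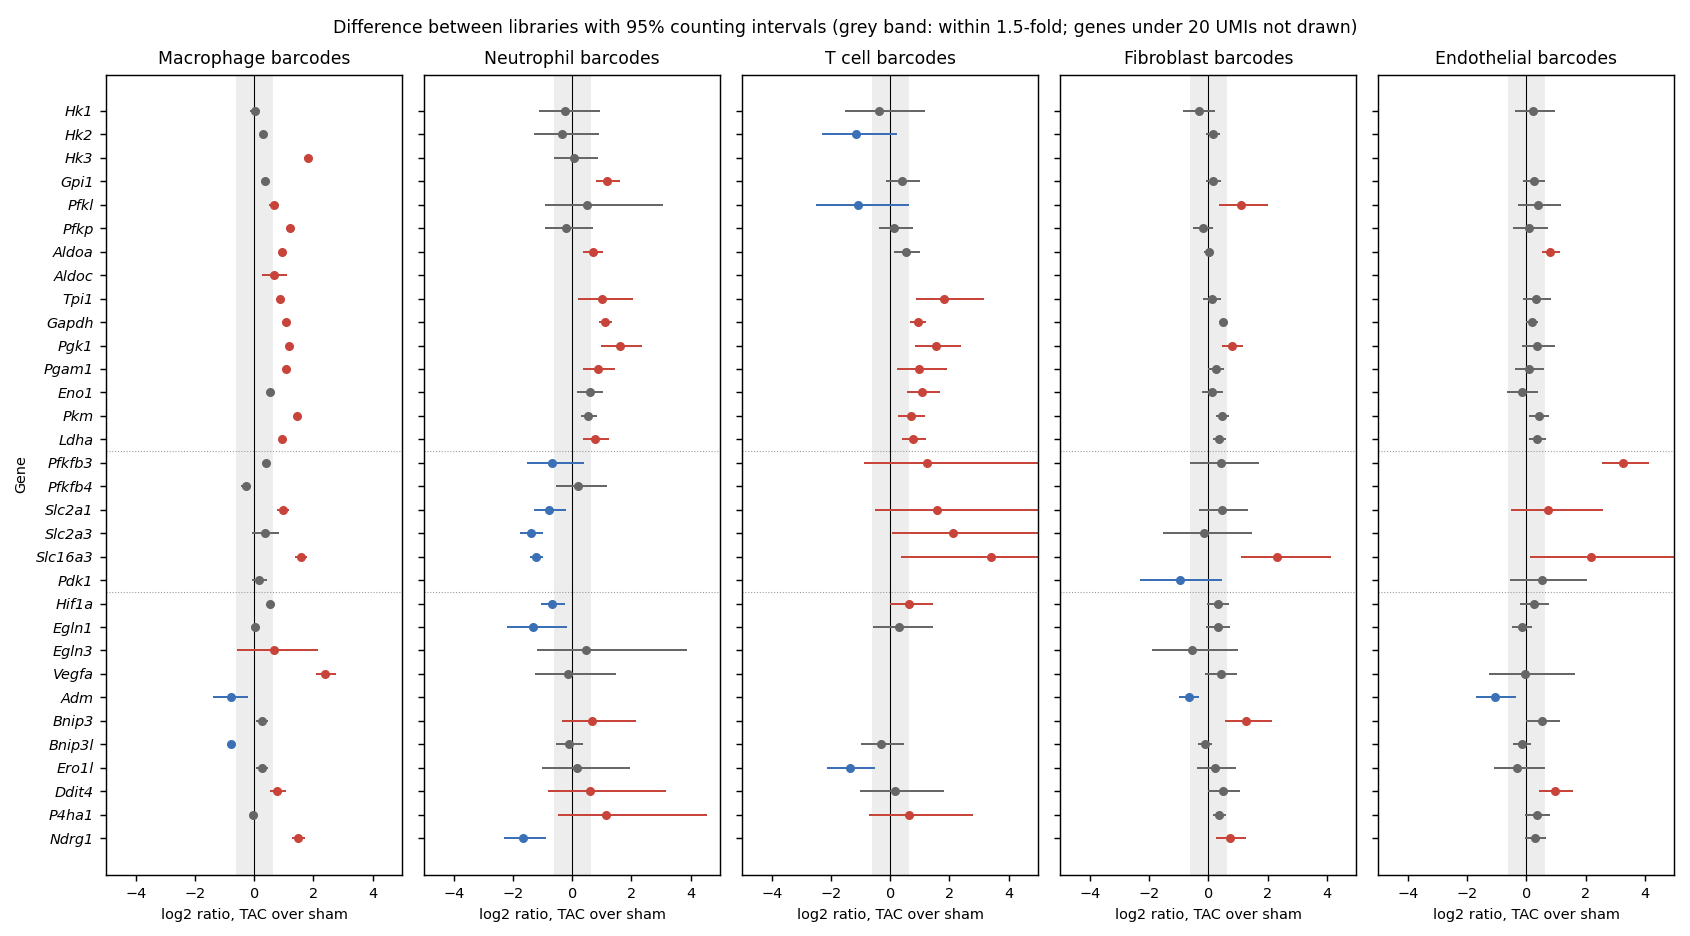
Log2 ratio of TAC over sham for each measured member in the 5 classes (points, 0.5 UMI added) with 95% counting intervals as lines; red and blue are past 1.5-fold higher and lower, whether or not the interval includes 0, and lines are clipped at the axis limits. In macrophages 11 of 15 enzymes are past the fold on the higher side and none on the lower, whereas 4 of 5 flux and transport genes are lower in neutrophils. Those 4 calls ended when barcodes with markers of a second class were kept.

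Macrophage barcodes carried more RNA of most glycolytic enzymes in the TAC library. Of the 15 enzymes 11 were past 1.5-fold higher and 0 lower, and the median log2 ratio was 0.93 (0.04 for Hk1 to 1.81 for Hk3), beside a median of -0.11 over all measured genes. Hk3, the hexokinase of myeloid cells, had the highest ratio of the enzymes, with 21.8 CPM in sham and 76.4 in TAC (3.51-fold, 3.25 to 3.79). Pkm, the pyruvate kinase that makes pyruvate and ATP in the closing step, stood at 195 and 528 (2.71-fold, 2.64 to 2.78). Gapdh, which carries out the oxidising step in mid-pathway, stood at 790 and 1673 (2.12-fold, 2.09 to 2.15). The shift ran through the pathway from its entry to its last step. The platelet-type phosphofructokinase Pfkp was 2.29-fold higher, the kinase Pgk1 2.27-fold, the mutase Pgam1 2.12-fold, lactate dehydrogenase A 1.93-fold, the aldolase Aldoa 1.91-fold, the isomerase Tpi1 1.81-fold, and the low-abundance Pfkl and Aldoc 1.60-fold each. Short of the fold were the enolase Eno1 (162 and 234 CPM, 1.45-fold), the isomerase Gpi1 (1.29-fold) and Hk2, the Hif-responsive hexokinase (1.23-fold). Hk1, the constitutive hexokinase, was at 20.9 and 21.4, and its interval included 1. Gapdh, Pgk1, Eno1 and other enzymes have many processed copies in the mouse genome, and no source used here says how reads shared with these were counted, so their levels are less certain than their symbols imply. The shift was visible in single barcodes: after thinning each to 1000 UMIs, a Pkm UMI was present in 14.6% of sham (13.5 to 15.9) and 36.6% of TAC macrophage barcodes (34.9 to 38.4), and in 71.7% and 96.7% without thinning.

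Flux control and transport genes of macrophages divided. Slc16a3, the lactate exporter, was at 9.85 CPM in sham and 29.7 in TAC (3.02-fold, 2.69 to 3.4). Slc2a1, the widespread glucose transporter, was at 9.35 and 18.4 (1.96-fold, 1.73 to 2.23). The rest were short of the fold. Pfkfb3, the kinase that makes the activator of phosphofructokinase, was at 40.2 and 53.0, and its relative Pfkfb4 at 21.4 and 17.7. The glucose transporter Slc2a3 was at 2.02 and 2.61, and Pdk1, a pyruvate dehydrogenase kinase, at 7.39 and 8.34. The intervals of Slc2a3 and Pdk1 included 1.

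The Hif pathway genes outside glycolysis showed no common direction in macrophages. Of 11, 4 were past the fold higher and 2 lower, and the median log2 ratio was 0.27 (-0.79 for Adm to 2.41 for Vegfa). Vegfa, the growth factor for blood vessels, had 104 UMIs in sham and 757 in TAC, or 2.88 and 15.3 CPM (5.33-fold, 4.33 to 6.60), the highest ratio of any member in this class. After thinning to 1000 UMIs its log2 ratio was 3.14 against 2.41. Ndrg1, a stress protein strongly induced by low oxygen, stood at 8.36 and 23.3 (2.79-fold, 2.45 to 3.18). Ddit4, an inhibitor of mTOR signalling, stood at 6.00 and 10.4 (1.73-fold, 1.47 to 2.03). Its log2 ratio of 0.79 went to 0.49 after thinning to 1000 UMIs, short of the fold, and to 2.08 with a mitochondrial limit of 5%, from 2 sham UMIs. The remaining member past the fold on the higher side, the hydroxylase Egln3, rested on 8 and 18 UMIs, and its interval included 1. On the lower side, the mitophagy receptor Bnip3l was at 107 and 62.6 (1.71-fold lower, 1.63 to 1.79), and its relative Bnip3 did not follow it, at 13.3 and 16.0. Adm, the vessel-relaxing peptide adrenomedullin, was at 1.69 and 0.972 (1.74-fold lower, 1.17 to 2.59), but 21 of its 61 sham UMIs lay in 1 barcode. Without the barcode with most Adm UMIs in each library, an alternative chosen after seeing the data, its log2 ratio was -0.28 against -0.79 and the call ended. Hif1a itself was at 55.3 and 80.0 CPM (1.45-fold, 1.37 to 1.53), short of the fold. Ero1l, an oxidase of protein folding, was at 14.6 and 17.6. Egln1 (39.3 and 40.4) and the collagen hydroxylase subunit P4ha1 (83.2 and 80.5) had intervals that included 1.

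Splitting macrophages by subset reduced the difference in Vegfa, Ndrg1 and Slc2a1 and left that of most enzymes. The split used the summed UMIs of the resident genes Lyve1, Folr2, Timd4 and Cd163 and the presence of a UMI of Ccr2, the receptor of recruited monocytes. Barcodes with at least 2 resident-gene UMIs per 10000 were 2946 in sham and 1821 in TAC (89.1% and 61.6% of the class); those below it were 155 and 556 without a Ccr2 UMI and 205 and 581 with one. Within the resident-gene barcodes 11 of 15 enzymes were past the fold higher and 0 lower, and the median log2 ratio was 0.95, and Pkm stood at 189 and 527 CPM (2.79-fold). Of all measured genes 11.5% were higher and 21.3% lower there. In the barcodes low in resident genes, 8 of 15 enzymes were higher without Ccr2 and 9 of 15 with it, and 0 were lower in either, against 16.6% and 17.8% of all measured genes higher and 18.7% and 15.3% lower. Vegfa differed by subset as well as by library. It was at 1.99 in sham and 4.79 in TAC in resident-gene barcodes (2.41-fold, 1.79 to 3.27), and at 16.8 and 36.8 in barcodes low in resident genes with Ccr2 (2.19-fold, 1.56 to 3.16). In barcodes low in both it was at 1.57 in sham, from 2 UMIs, and 28.1 in TAC (17.8-fold, 4.88 to 148). Ndrg1 was lowest in resident-gene barcodes, at 6.18 and 10.2, and highest in those with Ccr2, at 38.6 and 55.3. When the TAC levels of the 3 subsets were weighted by the subsets' share of sham UMIs, Vegfa stood at 7.56 CPM and its ratio went from 5.33 to 2.63. The same weighting took Ndrg1 from 2.79 to 1.64 and Slc2a1 from 1.96 to 1.63, but left Pkm at 2.71, Gapdh at 2.06 against 2.12, and Hk3 at 3.59 against 3.51. Pfkp went from 2.29 to 2.06, and Aldoc from 1.60 to 1.34, short of the fold. Over the 15 enzymes the median log2 ratio was 0.91 against 0.93, with 10 past the fold higher. Shares of all genes were not computed for this weighting. This weighting was chosen after the pooled values were seen.

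**Figure D3:**
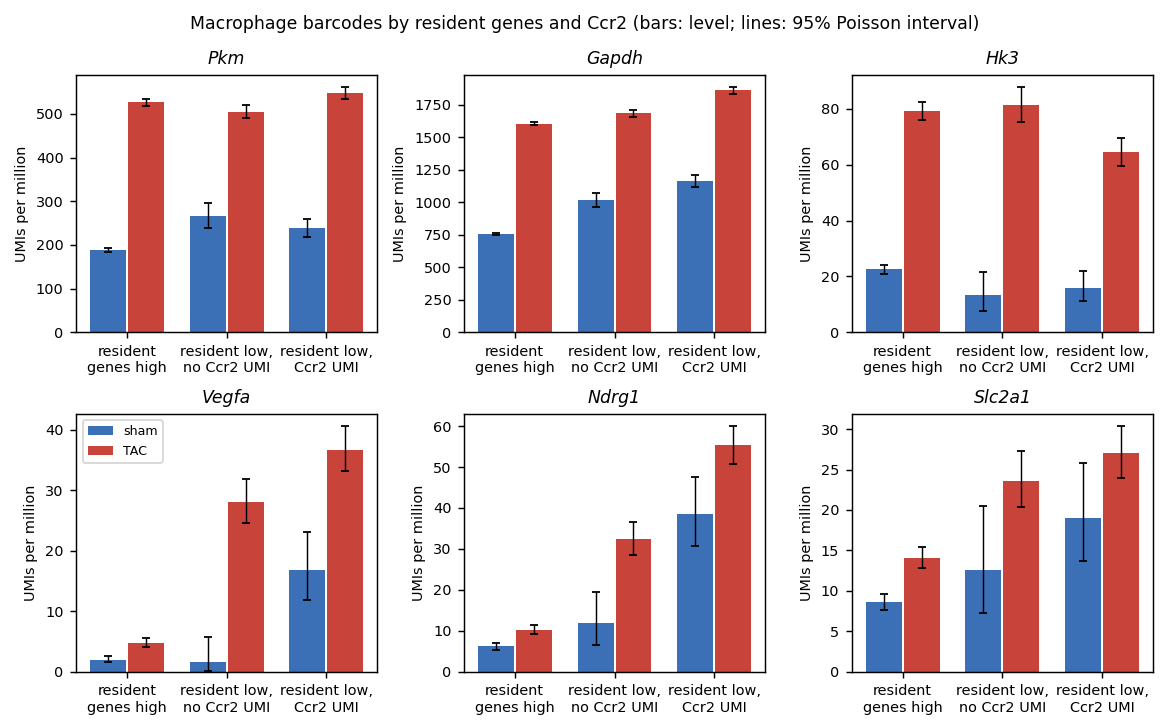
Level in CPM of 6 members in the 3 macrophage subsets of the sham (blue) and TAC (red) libraries, with 95% Poisson intervals. The enzymes Pkm, Gapdh and Hk3 are higher in TAC in each subset, and Vegfa in sham goes from 1.99 in resident-gene barcodes to 16.8 in those with Ccr2.

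In macrophage barcodes of low mitochondrial share fewer enzymes were past the fold, and the intervals of Vegfa and the transporters included 1. Among macrophage barcodes with 0 to 5% mitochondrial UMIs, only 76 in sham against 1769 in TAC, 7 of 15 enzymes were past the fold higher and 0 lower, where 15% of all measured genes were higher and 25.9% lower. The 7 were Hk3, Aldoa, Aldoc, Gapdh, Pgk1, Pkm and Ldha, of which Aldoc, with 2 sham UMIs, had an interval that included 1. There Pkm was at 255 and 568 CPM (2.23-fold, 1.97 to 2.53) and Hk3 at 20.4 and 78.4 (3.84-fold, 2.51 to 6.21), while Gapdh was 1.66-fold, Aldoa 1.64-fold, Pgk1 1.60-fold and Ldha 1.54-fold higher. Calls on 4 enzymes ended in this band: Pfkp, at 76.8 and 91.9 (0.957 to 1.51), Pgam1, at 163 and 208 (1.28-fold, 1.09 to 1.5), Tpi1 (1.39-fold) and Pfkl (0.867 to 1.96). Vegfa was at 13.6 and 17.9 in that band (1.32-fold, 0.779 to 2.42) and Slc2a1 at 20.4 and 19.6, both with intervals that included 1. Slc16a3 (24.3 and 33.0) and Ndrg1 (19.4 and 25.5) also had intervals that included 1 there. In the 5 to 10% band, with 3230 and 1189 barcodes, 10 of 15 enzymes were higher, against 10.8% of all measured genes, Vegfa was at 2.56 and 9.77 (3.81-fold, 2.92 to 5.0) and Slc2a1 at 9.03 and 15.7. Bnip3l was lower in TAC in both bands, at 120 and 64.6 and at 107 and 58.4. Weighting the TAC levels of these 2 bands by their share of sham UMIs reduced most enzyme differences. The enzyme median was 0.71 against 0.93, with 10 of 15 past the fold higher, a count without a share of all genes. The ratio of Pkm went from 2.71 to 2.28, Pgam1 from 2.12 to 1.68 and Aldoc from 1.60 to 0.86. That of Vegfa went from 5.33 to 3.48. The class was also split into 4 bands of increasing depth, of which the lowest reached 5000 UMIs per barcode. In these, 9 of 12, 9 of 14, 11 of 15 and 8 of 15 measured enzymes were higher and 0 lower. Of all measured genes 21.1%, 11.7%, 9.72% and 12.3% were higher there and 17.2%, 19.8%, 25.3% and 21.7% lower. Whether depth or mitochondrial share made more difference to the enzymes was not tested.

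A Vegfa UMI was found in a small share of macrophage barcodes. With each barcode thinned to 5000 UMIs, a Vegfa UMI was present in 25 of 3151 sham barcodes (0.793%, 0.514 to 1.17) and in 104 of 2879 TAC barcodes (3.61%, 2.96 to 4.36); 155 and 79 shallower barcodes were left out, and without thinning the shares were 1.45% and 7.51%. T cells, a class not known for Vegfa, had 0 of 21 sham barcodes at the same depth, which allows up to 14.3% by a floor of 3 counts. In TAC they had 2 of 81 barcodes (2.47%, 0.3 to 8.64), an interval that includes the TAC share of macrophages. Median depths before thinning were 5288 and 8631 UMIs in T cells. Among the TAC barcodes with Vegfa, 36.5% had a Ccr2 UMI and 22.1% reached the resident-gene limit, against 18.9% and 67.9% of those without it. Ndrg1 was at 104 CPM in TAC barcodes with Vegfa and 16.5 in those without (6.29-fold, 4.59 to 8.50). Slc2a1 was at 50 and 17.2 (2.90-fold, 1.86 to 4.36), Hif1a at 115 and 73.7 (1.56-fold, 1.19 to 2.03) and Pfkfb3 at 82.7 and 55.4 (1.49-fold, 1.07 to 2.03). On the other side were the oxygen sensor Egln1, at 19.2 and 39.4 CPM, and P4ha1, at 51.9 and 81.0 (ratio 0.641, 0.42 to 0.938). Among the enzymes, Pgk1 was 1.27-fold (1.01 to 1.58) and Pgam1 1.26-fold (1.03 to 1.52) higher with Vegfa, and the others had intervals that included 1. For the most abundant of these the ratio was 0.996 for Gapdh (0.928 to 1.07) and 0.993 for Pkm (0.873 to 1.13), and it was 1.0 for Ldha (0.843 to 1.18). In the 25 sham barcodes with Vegfa, Gapdh was 1.63-fold (1.37 to 1.91) and Pkm 1.77-fold (1.25 to 2.44) higher than in those without it, while their 1 UMI of Ndrg1 and 0 of Slc2a1 were too few to compare. Barcodes with a Vegfa UMI had been deeper before thinning, with medians of 17395 and 14937 UMIs in TAC.

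**Figure D4:**
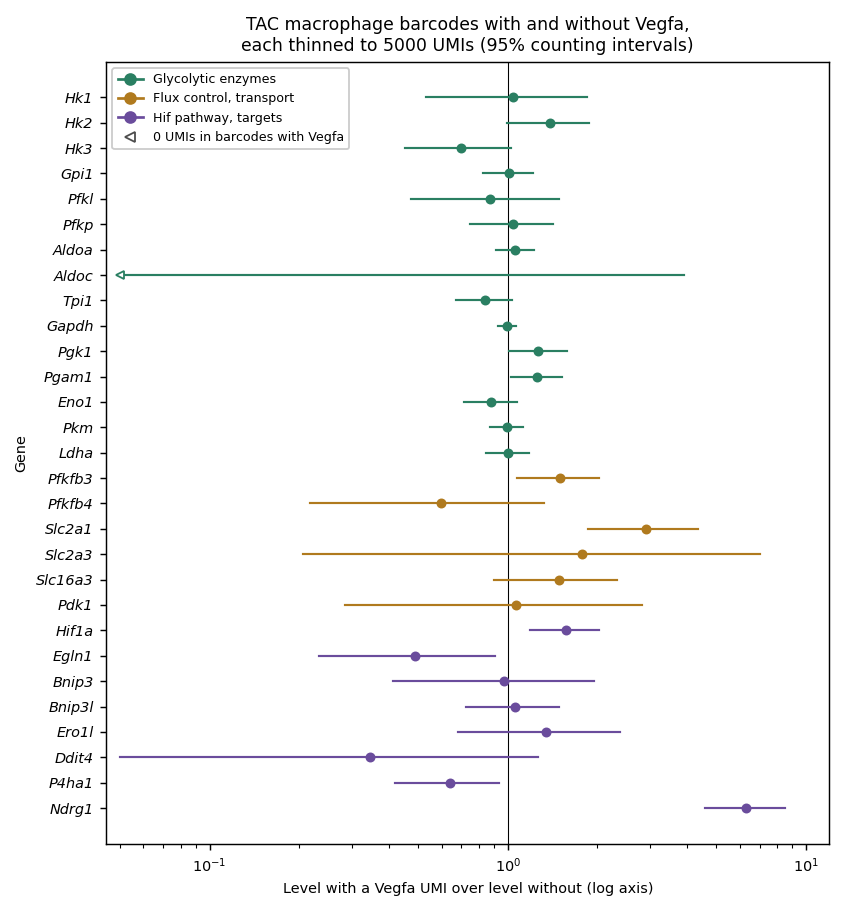
Level of each member in the 104 TAC macrophage barcodes with a Vegfa UMI over that in the barcodes without one, on a log axis with 95% counting intervals, after thinning to 5000 UMIs; members under 20 UMIs are not drawn, and the open triangle marks Aldoc, with 0 UMIs in barcodes with Vegfa. Ndrg1 (6.29) and Slc2a1 (2.90) stand to the right, Gapdh, Pkm and Ldha lie at 1, and Pgk1 (1.27) and Pgam1 (1.26) lie above it.

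Neutrophils showed higher enzymes together with lower transporters in the TAC library. The lower transporters depended on leaving out barcodes with markers of a second class, as given below. The 7 of 14 measured enzymes past the fold higher included Pgk1, at 66.8 CPM in sham and 207 in TAC (3.10-fold, 2.02 to 5.03), Gpi1 at 194 and 444 (2.29-fold, 1.77 to 3.0) and Gapdh at 815 and 1774 (2.18-fold, 1.92 to 2.47). Tpi1 (2.07-fold), Pgam1 (1.84-fold), Ldha (1.73-fold) and Aldoa (1.62-fold) completed them, 0 enzymes were past the fold lower, and Aldoc was under the minimum. Of all measured genes in this class 29.9% were higher and 26.3% lower. After thinning to 1000 UMIs the calls on Gpi1, Ldha and Aldoa ended, at 0.45, 0.31 and 0.35 on the log2 scale, and Pgk1 went from 1.60 to 0.81. Ldha was at 0.14 with barcodes weighted equally, and a mitochondrial limit of 10% put Aldoa at 0.29, Ldha at 0.56 and Tpi1 at 0.57. Hk3 did not differ as in macrophages, at 60.5 and 63.9, with an interval of 0.666 to 1.77 for the ratio. Slc16a3, the lactate exporter, was at 802 CPM in sham and 348 in TAC (2.31-fold lower, 2.01 to 2.63). The glucose transporter Slc2a3 was at 258 and 99.2 (2.60-fold lower, 2.03 to 3.28) and Slc2a1 at 121 and 70.9 (1.71-fold lower, 1.19 to 2.38). So 4 of 5 measured flux and transport genes were lower, against 26.3% of all measured genes. The fourth, Pfkfb3, rested on 12 and 139 UMIs with an interval that included 1, Pfkfb4 was not past the fold, and Pdk1 was under the minimum. Thinned to 1000 UMIs, 51.0% of sham (41.0 to 60.9) and 28.0% of TAC neutrophil barcodes (24.9 to 31.2) had an Slc16a3 UMI, against 1.03% and 2.94% of macrophages.

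Of the Hif pathway genes of neutrophils 3 of 10 were higher and 3 lower, near the 29.9% and 26.3% of all measured genes in this class. Ndrg1 was at 73.2 CPM in sham and 23.5 in TAC (3.11-fold lower, 1.91 to 4.87), Hif1a at 216 and 136 (1.59-fold lower, 1.22 to 2.04) and Egln1 at 35.0 and 14.5 (2.41-fold lower, 1.16 to 4.55). The 3 on the higher side, Bnip3, Ddit4 and P4ha1, had 7, 3 and 2 sham UMIs and intervals that included 1. Vegfa was at 19.1 and 18.6, with 6 sham UMIs. Among the class's barcodes, granule-gene-rich cells (Ngp, Camp and Ltf at 20 or more UMIs per 10000) were 2.88% in sham and 11.4% in TAC. In the barcodes below that limit, Slc16a3 was 2.06-fold lower (1.79 to 2.37), Slc2a3 2.39-fold lower (1.85 to 3.05) and Ndrg1 3.01-fold lower (1.82 to 4.78), while Pgk1 was 2.67-fold and Gapdh 1.83-fold higher. The 104 sham barcodes were few, with a median depth of 2588 UMIs against 4402, and their erythroid markers summed to 441 UMIs per 10000 against 37.5 in TAC. Without the barcodes at 50 or more haemoglobin UMIs per 10000, 2 in sham and 3 in TAC, Slc16a3 was at 858 and 349. Monocyte markers went the other way, at 8.82 and 71.0 UMIs per 10000, and their part in these results was not tested. All 7 calls on the lower side depended on leaving out barcodes that also carry markers of a second class, which removed 70.7% of sham and 46.7% of TAC barcodes. With these kept, none of the 7 was past the fold: the log2 ratio was -0.26 for Slc16a3, -0.30 for Slc2a3, -0.13 for Ndrg1, 0.37 for Slc2a1 and 0.08 for Hif1a, while that of Gapdh was 1.29 and that of Pgk1 1.54. With a mitochondrial limit of 10%, which left 15 sham barcodes, Slc2a1 was at 0.83. Scaling without mitochondrial, ribosomal protein and haemoglobin genes gave 6 members higher and 7 lower in place of 10 and 7.

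T cell barcodes also had more enzyme RNA in TAC, from 34 sham barcodes with 197076 UMIs in all. The class's own markers summed to 46.2 and 44.5 UMIs per 10000 in sham and TAC, the natural killer cell markers to 2.74 and 61.0 and monocyte markers to 5.07 and 26.5, and the part of the latter lists in these results was not tested. Of 13 measured enzymes 7 were higher and 2, Hk2 and Pfkl, lower, both of the latter with intervals that included 1. Tpi1 was at 40.6 CPM in sham and 153 in TAC (3.76-fold, 1.86 to 8.85), Pgk1 at 86.3 and 256 (2.96-fold, 1.82 to 5.16), Eno1 at 178 and 382 (2.15-fold, 1.52 to 3.13) and Gapdh at 903 and 1724 (1.91-fold, 1.64 to 2.24). Pgam1 (2.02-fold), Ldha (1.73-fold) and Pkm (1.63-fold) were the others. All 4 measured flux and transport genes were past the fold higher, but on almost no sham molecules. Each reached the minimum of 20 UMIs through its TAC count, in a class with 1075241 UMIs. The minimum thus favoured genes high in TAC, and the count of 4 is no result about the group. Pfkfb3, Slc2a1 and Slc2a3 had 1 sham UMI each, and Slc16a3 had 0 in sham and 28 in TAC, at least 1.71-fold higher if the sham class is set to a floor of 3 counts. Ero1l was lower, at 112 and 43.7 (2.55-fold lower, 1.47 to 4.32), a call that ended when barcodes with markers of a second class were kept (log2 ratio -0.063). Hif1a was at 107 and 170 (1.60-fold, 1.01 to 2.64) with 6 of its 21 sham UMIs in 1 barcode. After thinning to 1000 UMIs the calls on Gapdh and Ldha ended, at 0.44 and 0.40 on the log2 scale. Vegfa had 0 and 3 UMIs and Adm 0 in both libraries. Barcodes with at least 1 UMI per 10000 of Cd8a, Cd8b1 and Gzmb were 12 of 34 in sham and 69 of 88 in TAC. Gapdh was 2.41-fold higher (1.80 to 3.30) within them and 1.53-fold (1.24 to 1.90) in the rest, where Hif1a was at 82.7 and 365. Scaling without mitochondrial, ribosomal protein and haemoglobin genes gave 9 members higher and 4 lower in T cells, and keeping barcodes with markers of a second class gave 20 higher.

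Fibroblasts differed little in enzymes. Of 13 measured enzymes 2 were higher and 0 lower, and the median log2 ratio was 0.17 beside -0.09 for all measured genes. Pgk1 was at 61.3 CPM in sham and 107 in TAC (1.75-fold, 1.40 to 2.20) and Pfkl at 10.5 and 23.4 (2.22-fold, 1.31 to 3.99). Aldoa was at 347 and 354 and Tpi1 at 106 and 116, with intervals that included 1. Of the other groups, Slc16a3 went from 5 to 63 UMIs (5.47-fold, 2.23 to 17.4), Bnip3 was at 11.1 and 27.7 (2.49-fold, 1.5 to 4.36) and Ndrg1 at 31.0 and 51.9 (1.68-fold, 1.22 to 2.34), while Pdk1, lower on 10 and 12 UMIs, had an interval that included 1. The log2 ratio of Slc16a3 went from 2.33 to 1.64 with a mitochondrial limit of 25%, and that of Ndrg1 from 0.73 to 0.49, short of the fold, after thinning to 1000 UMIs. Fibroblasts had the highest Vegfa level of the 5 classes, 27.2 and 36.6, with an interval of 0.949 to 1.93 for the ratio, though in sham it did not differ from neutrophils beyond counting error (0.606 to 4.09 for that ratio).

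Adm in fibroblasts was lower in TAC over the whole class but not within either of its 2 subsets. Over the class it was at 97.8 CPM in sham and 62.6 in TAC (1.56-fold lower, 1.27 to 1.92). Thinning each barcode to 1000 UMIs put this log2 ratio at 0.87 against -0.64. Barcodes with at least 1 UMI per 10000 of Postn and Cthrc1, which mark activated fibroblasts, were 10.5% of the class in sham (19) and 60.5% in TAC (133). Adm was lower in that subset in either library, at 27.1 and 34.4, than in the barcodes below the limit, at 109 and 135. Within each subset the TAC level was the higher one (1.27-fold, 0.562 to 3.55, and 1.24-fold, 0.978 to 1.57), but both intervals included 1. Weighted by the sham shares of the 2 subsets, Adm in TAC stood at 121. The part of the class's makeup in the pooled ratio was not tested. Vegfa had the reverse layout, at 49.7 and 41.5 in the activated subset and 23.7 and 23.9 outside it. Pgk1 was 1.32-fold higher in both subsets, with intervals that included 1, whereas Bnip3 outside the activated subset was at 12.2 and 37.4 (3.06-fold, 1.69 to 5.77).

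Endothelial barcodes differed most in Pfkfb3. This kinase makes the sugar phosphate that switches phosphofructokinase on and is known as a driver of glycolysis in sprouting vessels. It had 16 UMIs in sham and 728 in TAC, or 26.4 and 259 CPM (9.81-fold, 6.00 to 17.3), the highest ratio of any member in any class with more than 5 sham UMIs. Thinned to 1000 UMIs, a Pfkfb3 UMI was present in 2.90% of 69 sham barcodes (0.353 to 10.1) and 21.9% of 343 TAC barcodes (17.6 to 26.6); fibroblasts, the other non-leukocyte class, had 0 of 180 in sham, which allows a share of up to 1.67% by a floor of 3 counts, and 0.909% in TAC. Without thinning the shares were 14.5% and 65.6% in endothelial barcodes and 4.42% and 10.9% in fibroblasts. Pfkfb3 was 11.2-fold higher (2.98 to 94) in barcodes with Npr3 or Vwf, endocardial and large-vessel genes, and 9.54-fold (5.65 to 17.6) in the rest. The former were only 11 barcodes in sham and 36 in TAC, so the ratio there is loosely fixed. Erythroid markers summed to 753 UMIs per 10000 in sham and 89.2 in TAC endothelial barcodes, and without those rich in haemoglobin the ratio was 8.56 (5.15 to 15.4). With a mitochondrial limit of 25%, which raises the sham class to 432 barcodes, its log2 ratio was 3.4 against 3.25, and with each barcode thinned to 1000 UMIs it was 2.43. The enzymes that Pfkfb3 serves differed less, with a median log2 ratio of 0.30 beside 0.05 for all measured genes. Past the fold was 1 of 12, Aldoa at 218 and 383 (1.76-fold, 1.47 to 2.13). Pkm was 1.35-fold, Ldha 1.30-fold and Gapdh 1.15-fold higher, while Pfkl, Pfkp, Pgk1, Tpi1 and Eno1 had intervals that included 1. Slc16a3 (1 and 31 UMIs; ratio 6.69, 1.11 to 272) and Slc2a1 (5 and 42; 0.718 to 5.87) were past the fold on few molecules. Of the Hif pathway genes Ddit4 was at 56.1 and 111 (1.99-fold, 1.39 to 2.92; log2 ratio 0.46 and short of the fold after thinning to 1000 UMIs) and Adm at 52.8 and 25.6 (2.06-fold lower, 1.31 to 3.17), with 11 of its 32 sham UMIs in 1 barcode. Without the barcode with most Adm UMIs in each library its log2 ratio was -0.78 against -1.06, still past the fold. Vegfa was at 9.90 and 10.3.

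**Figure D5:**
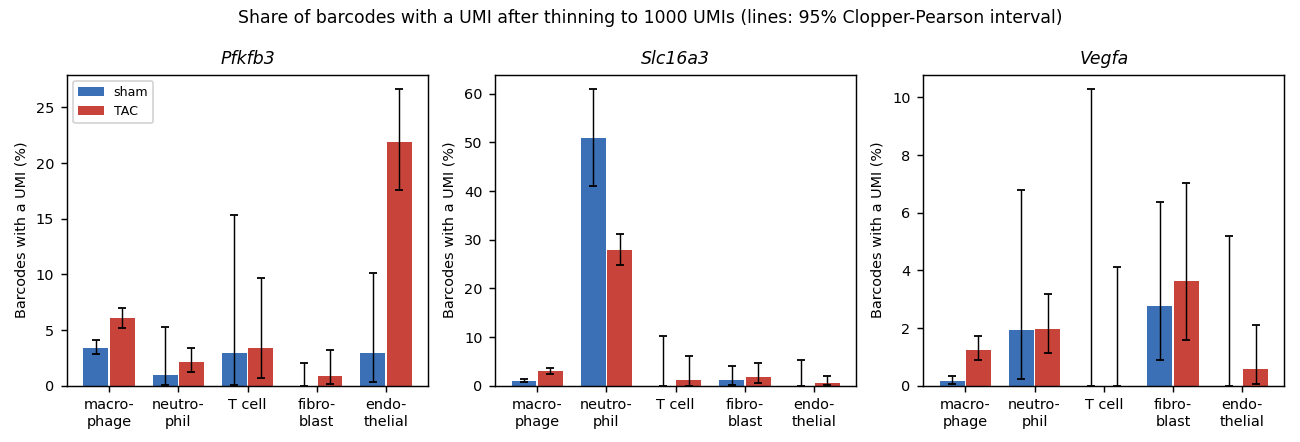
Share of barcodes (%) with at least 1 UMI of Pfkfb3, Slc16a3 and Vegfa in the 5 classes after thinning each barcode to 1000 UMIs, sham in blue and TAC in red, with 95% Clopper-Pearson intervals. Pfkfb3 is found in 21.9% of TAC endothelial barcodes, and Slc16a3 in 51.0% of sham and 28.0% of TAC neutrophil barcodes.

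Set side by side, the classes kept distinct profiles of these genes in both libraries. Hk2 was highest in fibroblasts (175 and 193 CPM in sham and TAC; 3.58 and 3.21 times the next class), Egln1 in endothelial barcodes (196 and 177; 3.52 and 2.48 times) and Slc16a3 in neutrophils (81.4 and 11.7 times). Ndrg1 was highest in endothelial barcodes (170 and 210), Adm and P4ha1 in fibroblasts and Ero1l in T cells, again in either library. For Gapdh the leading classes in TAC, neutrophils and T cells, did not differ beyond their intervals (ratio 1.03, 0.979 to 1.08). Hk3 changed its leading class, from neutrophils in sham (2.77 times macrophages, 1.66 to 4.36) to macrophages in TAC (1.2 times neutrophils, 1.07 to 1.34). Of the 32 members 9 were past the fold higher in at least 3 classes: Aldoa, Tpi1, Gapdh, Pgk1, Pgam1, Ldha, Slc2a1, Slc16a3 and Ddit4. Pgk1 and Slc16a3 were so in 4. Adm was lower in all 3 classes where it was measured. In macrophages this held only with 1 barcode kept, and in fibroblasts only before the split and the thinning given above. Hk1 and Pfkfb4 were past the fold in no class. The glucose and lactate transporters, Pfkfb3, Hif1a, Ndrg1 and Pfkl were higher in some classes and lower in another, 7 members in all. That these classes differ from each other was not tested. Shares of all genes for such counts over classes were not computed, so neither the 9 nor the 7 can be set against a background.

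Other genes of the same pathways went both ways in macrophages. Of 30 further glycolysis genes 23 were measured there, with 3 higher and 4 lower and a median of 0.05 on the log2 scale, and of 32 further Hif and hypoxia genes 28 were measured, with 7 higher and 9 lower and a median of 0.00, beside the 12.8% and 22.6% of all genes given above. Slc2a6, a lysosomal hexose transporter of inflammatory macrophages, was at 6.09 and 29.9 CPM (4.92-fold, 4.27 to 5.69). Hilpda, a lipid droplet protein under Hif control, was at 17.8 and 61.8 (3.47-fold, 3.18 to 3.78), and Car9, a carbonic anhydrase and classical hypoxia marker, at 2.05 and 5.0 (2.44-fold). Against them stood Tfrc, the transferrin receptor and likewise a Hif target, at 16.9 and 6.56 (2.58-fold lower, 2.25 to 2.96), Pdk2 (2.06-fold lower), Rora (2.04-fold lower) and Ldhb (1.93-fold lower). In fibroblasts Lox, which crosslinks collagen, was at 43.9 and 206 (4.68-fold, 3.67 to 6.06) and Angptl4, a lipase inhibitor, at 10.5 and 85.5 (8.12-fold, 4.99 to 14.1), while Epas1, the sister of Hif1a, was 1.81-fold lower (1.40 to 2.33) and Ldhb 1.98-fold lower. In endothelial barcodes the collagen hydroxylase P4ha2 was at 18.1 and 76.1 (4.20-fold, 2.30 to 8.53). Bpgm, an erythrocyte enzyme, was 4.22-fold lower (2.48 to 7.13) there, where the erythroid markers given above were lower too. In neutrophils Mpc1, the mitochondrial pyruvate carrier, was 1.84-fold lower (1.46 to 2.28) and Arnt, the partner of Hif1a, 2.54-fold lower (1.30 to 4.57). In T cells Rora was 2.71-fold lower (2.0 to 3.64) and Cited2 2.01-fold lower (1.38 to 2.87), while Higd1a was 1.77-fold higher (1.1 to 3.02). Of the 7 pentose phosphate genes, which draw on the same glucose, 2 were higher in macrophages and 0 lower: Tkt at 108 and 174 (1.61-fold) and Taldo1 at 163 and 270 (1.65-fold).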

How the data were processed

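Droplet single-cell RNA libraries were deposited by the authors as matrices of UMI counts per gene and barcode, 1 for sham and 1 for TAC. Cell Ranger 3.0 and mm10 are named per the submitters' processing notes. From these counts, read with Python 3.11.15, numpy 2.4.6, scipy 1.17.1 and pandas 2.3.3, barcodes with at least 300 genes were kept. The mitochondrial share was limited to 10% for macrophage, fibroblast and endothelial barcodes and to 25% for neutrophil and T cell barcodes. A class needed 5 of its 8 markers, macrophages and neutrophils also 40 marker UMIs per 10000, and fewer than 20 per 10000 of any other class. That exclusion was the only treatment of doublets. The planned limit was 10% for every class with mixed barcodes kept; this was changed after barcode and marker counts were seen, and the planned choices became alternatives. Counts were summed per class and library and scaled to 1000000 UMIs (CPM). Level intervals are exact Poisson, ratio intervals exact conditional binomial and share intervals Clopper-Pearson, all 95%. The calculation was tested on simulated data.

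All members were named; of each other list, up to 2 genes with the highest and 2 with the lowest ratio per class among those with at least 50 UMIs could be named. Subset limits were set by hand. Members and lists were chosen with earlier results of these data known. Alternatives covered gates, mixed barcodes, mitochondrial limits, gene minimum, scaling, barcode weight, thinning, added UMI, UMI minimum and the barcode with most UMIs of a gene; those leaving under 10 barcodes in a library were dropped, a limit set after values were seen. Aldoa has 2 gene IDs, of which the one with 18289 sham and 36288 TAC UMIs was used. RefSeq calls Ero1l Ero1a. Levels were not scaled to gene length, so levels of different genes were not compared.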

Additional observations from a re-analysis of the deposited data

Results flagged for a closer look

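Slc16a3, Slc2a3, Ndrg1, Slc2a1 and Hif1a went past the fold in opposite directions in different classes, and the difference between the classes was not tested in any of these cases, since each class has 1 value per library. Slc16a3, the lactate exporter, had a log2 ratio of 3.39 in T cells, fitted on 0 sham UMIs, and -1.21 in neutrophils, which is 4.59 apart; with 0 sham UMIs the T cell ratio depends on the 0.5 UMI added and is no bound, and against a floor of 3 counts the gene is at least 1.71-fold higher there. Slc2a3, a glucose transporter, had 2.12 in T cells, from 1 sham UMI, and -1.39 in neutrophils, 3.50 apart. Ndrg1, the stress protein, had 1.48 in macrophages and -1.66 in neutrophils, 3.14 apart. Slc2a1 had 0.97 in macrophages and -0.79 in neutrophils, 1.76 apart. Hif1a had 0.65 in T cells and -0.68 in neutrophils, 1.32 apart. Neutrophils are the lower side in each, and none of their 5 ratios stayed past the fold when barcodes with markers of a second class were kept.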

How the results depend on the processing

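Of 345 alternatives for list medians and counts, 316 stayed near the reported value, 29 moved and 0 reversed. Of 2012 for single members, 1834 stayed, 167 moved and 11 reversed. The cause of these shifts was not tested. A single member stayed if its ratio lay inside its counting interval, which is wide for members with few UMIs. A changed UMI minimum cannot alter a member's ratio, and these alternatives are counted among those that stayed. The tally is therefore no measure of how firm the ratios are. In macrophages a mitochondrial limit of 5% gave an enzyme median of 0.47 and 8 members higher, with Slc2a1 at -0.092; thinning to 1000 UMIs gave 1 lower, and a gate of 4 markers put Aldoc at -0.093. In neutrophils, members higher were 6 under scaling without mitochondrial, ribosomal protein and haemoglobin genes and 5 after thinning. With second-class barcodes kept 1 was lower, a member under the minimum in the reported class, and Slc2a1 was at 0.37, Hif1a at 0.082 and P4ha1 at -0.28. A limit of 10% put Slc2a1 at 0.83 and Ddit4 at -1.11. In T cells the flux and transport median was 0.58 with second-class barcodes kept, 3.53 with a limit of 10 UMIs per 10000 of another class and 0.37 with barcodes weighted equally. Keeping second-class barcodes gave a Hif median of 0.67, 20 higher, Hk2 at 0.17, Pfkl at 0.78 and P4ha1 at -0.077. Thinning gave 5 higher and 0 lower, a minimum of 100 UMIs 8 and 0, and no minimum 6 lower. In fibroblasts thinning gave 3 higher, 1 lower and Adm at 0.87, and 1 was lower under median scaling and with a minimum of 100 UMIs. In endothelial barcodes keeping second-class barcodes gave an enzyme median of 0.41, 9 higher and 2 lower; a mitochondrial limit of 25% gave 9 higher, thinning 3 higher and 4 lower, and a minimum of 100 UMIs 3 higher. Leaving out haemoglobin-rich barcodes and equal weights each gave 2 lower. The limit of 10 UMIs per 10000, keeping second-class barcodes, the 10% limit, leaving out haemoglobin-rich barcodes and leaving out the barcode with most UMIs of the gene were alternatives chosen after seeing the data.

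A mitochondrial limit of 5% was not run for the classes other than macrophages, nor one of 10% for T cells, since fewer than 10 sham barcodes remained. No paired analysis was possible because each arm is 1 library and the labels give no replicate numbers. The 34 sham T cell, 69 endothelial and 104 neutrophil barcodes limit what depth can show: of the called members, 3 of 10 higher in neutrophils and 3 of 13 in T cells had counting intervals that included 1.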
